A study of Mus musculus with 12 samples.

Results

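The 10 genes described here encode heat shock proteins of the cytosol and of mitochondria, together with the factor that drives their transcription. They were chosen by name, with earlier results of these data known. Each matched a single entry among the 54532 genes of the deposited count table. The members were Hspa1a, Hspa1b and Hspa8 of the HSP70 family, Hsph1, Dnajb1, Hsp90aa1, Hsp90ab1, Hspd1, Hspe1 and Hsf1. All 10 passed the filter on low counts, which left 14473 genes to test.

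The RNA came from primary B lymphocytes of mice, kept in culture plates, and was sequenced as poly-A RNA. There were 4 groups of 3 libraries each. They were Tmem173-/- cells given 3'3'-cGAMP for 12 hours, Tmem173-/- control cells, wild type cells given 3'3'-cGAMP for 12 hours, and wild type control cells. Tmem173 encodes STING, an innate immune receptor of the endoplasmic reticulum that binds cyclic dinucleotides such as 3'3'-cGAMP, so the design asks which cGAMP responses need STING. The labels give 3 mice per genotype and state neither their age, sex or strain, nor the allele behind the Tmem173-/- genotype, nor the dose of cGAMP. Since each genotype has 6 libraries, its libraries cannot all come from different mice, and p-values measure the spread between libraries.

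Heat shock proteins are chaperones, which bind unfolded or half-made proteins and help them to fold. HSP70 proteins bind short greasy stretches of a client and release them in a cycle set by J-domain partners and by nucleotide exchange factors, and HSP90 proteins take over clients that are nearly folded, many of them kinases and receptors. In mitochondria, HSP60 and its lid HSP10 form a closed chamber for folding, and in the nucleus HSF1 switches on many of these genes through heat shock elements, repeats of the letters GAA and their reverse TTC.

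Total counts per library were 26490593 to 31417833, and 18556 to 19727 genes had a count in a library. Levels between libraries are given as CPM (counts scaled to a fixed library size) after scaling by the trimmed mean of M-values (TMM). Tmem173 RNA was at 93.3 ± 9.45 CPM in Tmem173-/- cGAMP, 92.7 ± 11.5 CPM in Tmem173-/- control, 47.3 ± 2.37 CPM in wild type cGAMP and 95.3 ± 5.95 CPM in wild type control libraries (SD, n = 3 each). Between the control groups, with Tmem173-/- over wild type, its log2 difference was -0.04 ± 0.10 (SE, edgeR adjusted p = 0.935). The level of Tmem173 RNA therefore does not check the genotype, and every statement on Tmem173-/- below rests on the labels. Markers of B cells summed to between 6020 and 6746 CPM in wild type cGAMP libraries, against 8281 to 9389 CPM in wild type controls, and all 9 markers were present in each group. T cell markers summed to 22.8 and 11.0 CPM in the wild type cGAMP and control libraries numbered 1, against at most 4.55 CPM elsewhere, and neutrophil markers to 21.8 and 8.23 CPM there, against at most 1.66 CPM elsewhere.

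A single library stood far apart for a single member, and this bears on each result for Hsp90aa1. In wild type control replicate 2, Hsp90aa1 had 382 counts, against 24402 and 27433 counts in wild type control replicates 1 and 3. By a rule chosen after this value was seen, 14 genes with at least 50 CPM in replicates 1 and 3 lay more than 4-fold below both in replicate 2, against 1 gene at most in any other library. Hsp90aa1 was the lowest of them, 63.7-fold below the lower of the other controls. Of the remaining 13 genes, mt-Rnr2 and mt-Rnr1 are the mitochondrial ribosomal RNAs, and Rrp12, Rrp15, Rrp1, Rrp7a, Rrp1b and Rrp9 carry the name of ribosomal RNA processing. They lay between 4.34-fold (Lars2) and 47.3-fold (mt-Rnr2) below. The other 9 members are not among these genes. Even so, Hspa8, Hsph1, Hsp90ab1, Hspd1, Hspe1 and Hsf1 had their lowest wild type control level in replicate 2, and Hspa1b had its highest there. The cause was not tested, and the tests of Hsp90aa1 that rest on this library are given with and without it.

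**Figure D1:**
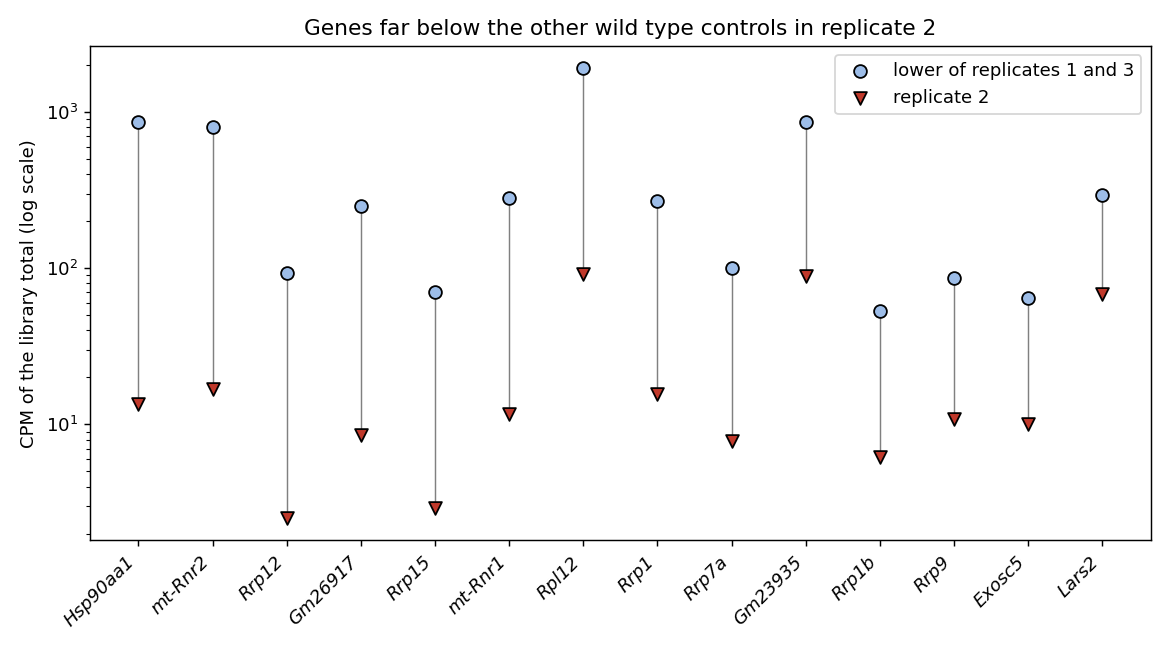
The 14 genes far below the other wild type controls in replicate 2, as CPM of the library total on a log scale, with triangles for replicate 2 and circles for the lower of replicates 1 and 3. Hsp90aa1, at the left, has the widest gap, 63.7-fold.

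RefSeq promoter sequences (GRCm38.p6) were at hand for 6 members, with 9 start sites. In the 250 bases before the start, the heat shock element letters GAANNTTC or TTCNNGAA, each of which reads the same on both strands, occurred in 6 of 9 windows and in 5 of 6 members, namely Hspa1a, Hspa1b, Hsph1, Hspd1 and Hspe1. They occur in 12.8% of all 32851 such windows. Dnajb1 held neither in its 2 windows. The longer element of 3 alternating units occurred in 2 member windows, of Hspd1 and Hspe1, and in 0.466% of all windows on either strand. Some member windows share sequence, so these counts are not of separate elements. The Hsph1 windows overlap and hold the same element, and the Hspa1a and Hspa1b windows are near copies. The Hspe1 window and an Hspd1 window hold the same stretch. The windows below are printed 5′ to 3′ on the gene's strand and end just before the start site, because they hold the elements by which these genes are known. Capitals mark the heat shock element letters.
Hspa1a, chr17:34972157-34972406, minus strand: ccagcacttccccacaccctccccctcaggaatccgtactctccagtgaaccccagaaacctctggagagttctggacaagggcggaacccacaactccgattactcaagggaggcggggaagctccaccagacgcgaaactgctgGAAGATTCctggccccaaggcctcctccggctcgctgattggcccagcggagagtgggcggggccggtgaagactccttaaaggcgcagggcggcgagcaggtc
Hspa1b, chr17:34959239-34959488, minus strand: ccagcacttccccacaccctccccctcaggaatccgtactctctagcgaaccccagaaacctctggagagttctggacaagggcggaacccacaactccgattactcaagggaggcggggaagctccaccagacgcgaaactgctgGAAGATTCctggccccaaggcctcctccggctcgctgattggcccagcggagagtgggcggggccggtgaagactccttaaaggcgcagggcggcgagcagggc
Hsph1, chr5:149636337-149636586, minus strand: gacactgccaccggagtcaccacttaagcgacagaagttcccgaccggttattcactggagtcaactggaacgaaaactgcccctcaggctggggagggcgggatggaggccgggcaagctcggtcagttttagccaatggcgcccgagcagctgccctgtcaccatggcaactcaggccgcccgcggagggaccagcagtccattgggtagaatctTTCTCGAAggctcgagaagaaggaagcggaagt
Hspe1, chr1:55087898-55088147, plus strand: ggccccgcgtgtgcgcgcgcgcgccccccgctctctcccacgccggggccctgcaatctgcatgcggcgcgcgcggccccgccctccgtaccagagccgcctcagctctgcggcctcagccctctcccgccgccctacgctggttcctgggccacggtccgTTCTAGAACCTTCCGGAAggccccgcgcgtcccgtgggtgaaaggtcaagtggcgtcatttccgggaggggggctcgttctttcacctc

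The Hspa1a and Hspa1b windows differ at 3 of 250 positions, and both carry GAAGATTC 104 bases before the start. Hsph1 carries TTCTCGAA 33 bases before the start shown. The Hspe1 window holds the run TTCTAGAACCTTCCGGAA, 18 bases of 4 alternating units, at chr1:55088059-55088076. This run begins 89 bases before the Hspe1 start, and the same stretch, read from the opposite strand, lies in 1 of the Hspd1 windows, since the genes start close together on opposite strands. A match of letters is a description and shows no binding.

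In wild type cells, RNA of 6 of the 10 genes rose after cGAMP and none fell. These were Hspa1a, Hspa1b, Hspa8, Hsph1, Hspd1 and Hsf1, with changes of 1.48-fold to 3.47-fold. Hsp90aa1 rose as well once the discrepant control library was left out, by 1.93-fold. Among all tested genes, 22.4% rose and 25.4% fell in this comparison, so 47.8% changed in one direction or the other. With library totals as the only scaling 3688 genes rose and 3114 fell, against 3238 and 3683 with TMM. The median log2 fold change of the 10 members was 0.83, beside -0.0036 over all tested genes, and it was 0.74 without wild type control replicate 2. In 8 of the 10 members every wild type cGAMP library lay above every wild type control library, an arrangement that held for 26% of all tested genes, while 0 members and 28.4% of tested genes had every cGAMP library below. In bulk RNA, fewer cells of a type and less RNA per cell cannot be told apart, and this holds for each result here. Summed markers of other cell types moved with cGAMP in wild type cells too. Markers of monocytes and macrophages summed to 10.5 to 19.4 CPM in wild type cGAMP libraries, against 36.1 to 46.4 CPM in wild type controls, and those of dendritic cells to 36.2 to 43.4 CPM in wild type cGAMP libraries, against 14.0 to 18.1 CPM in wild type controls. Their part, and that of the lower B cell markers, in these results was not tested.

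**Figure D2:**
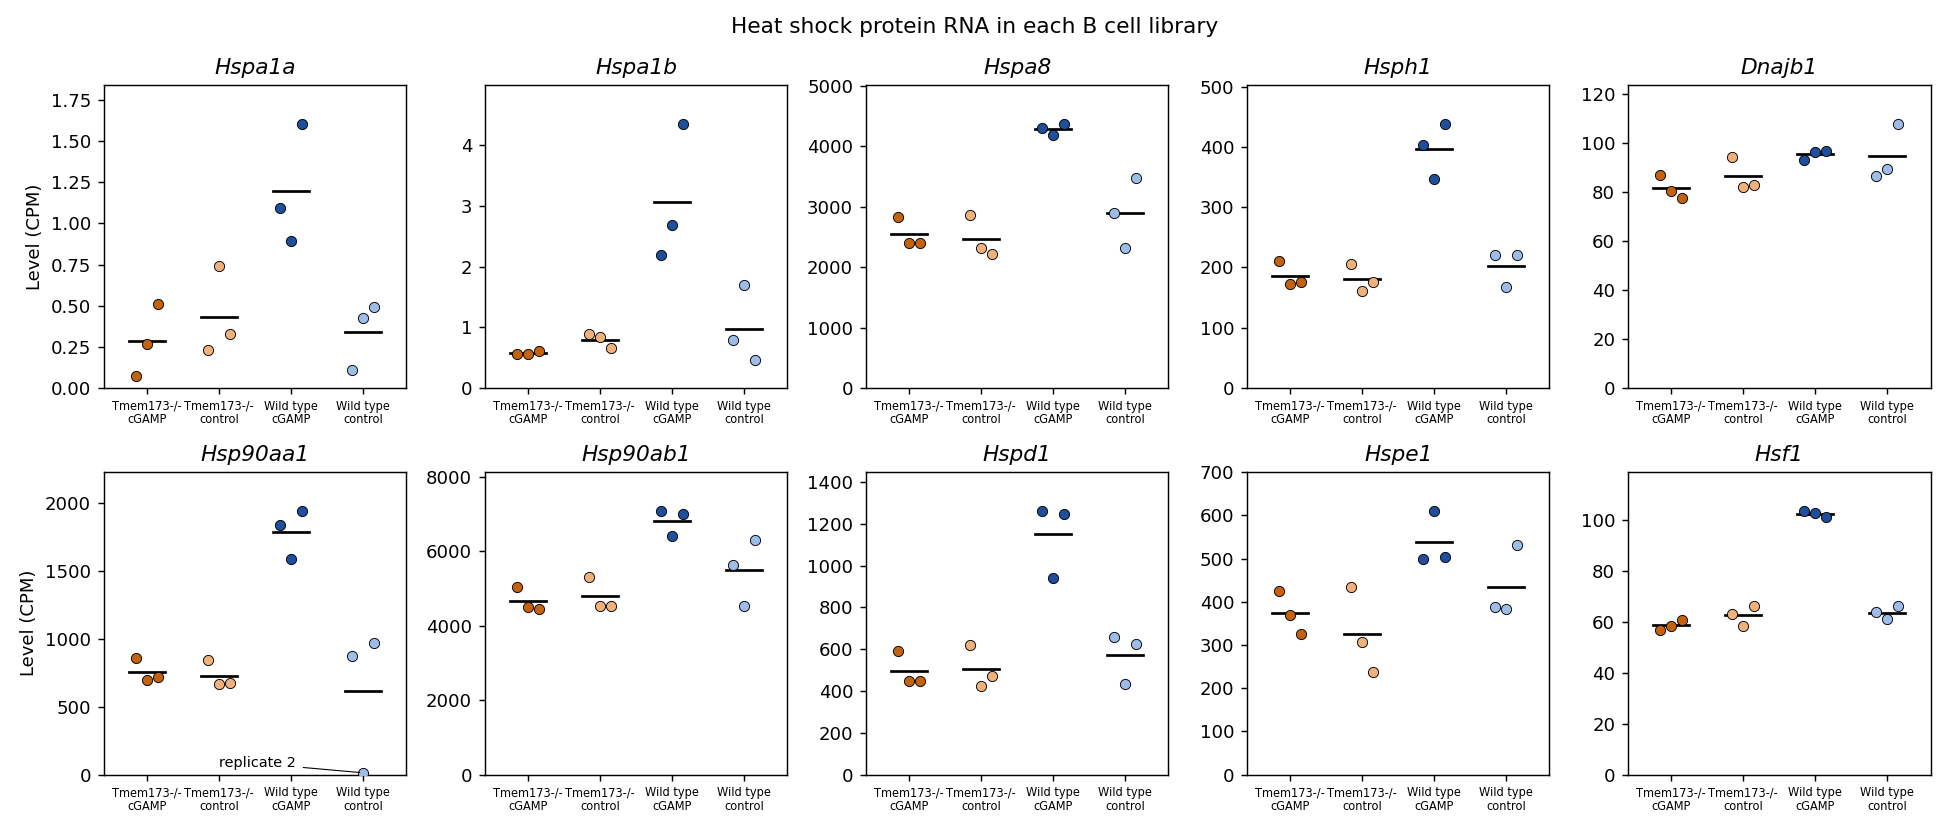
Levels of the 10 genes in CPM in each of the 12 libraries, by group, with points for libraries in the order of their numbers and bars for group means (n = 3). In the wild type cGAMP group all 3 points lie above the wild type controls for every gene except Dnajb1 and Hspe1, and the wild type control point near 0 for Hsp90aa1 is replicate 2.

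Hspa8 (ENSMUSG00000015656, GRCm38 chr9:40800984-40810087, plus strand) encodes HSC70, the HSP70 that cells make at all times. In cells labelled Tmem173-/- it was at 2835, 2399 and 2395 CPM after cGAMP and at 2860, 2318 and 2220 CPM in controls. These groups overlapped, and the library numbered 1 was the highest in each. Hspa8 was at 4299, 4192 and 4363 CPM in wild type cGAMP libraries, against 2901, 2319 and 3469 CPM in wild type controls. The groups did not overlap, and replicate 2 was the lowest control. The log2 fold change was 0.56 ± 0.14 (SE, edgeR adjusted p = 0.00408), and with wild type control replicate 2 left out it was 0.42 (adjusted p by edgeR = 0.0242). Of the 100-base stretches of its transcript, 32.1% also occur in other genes, most of them in Gm15459, which had at most 5 counts in any library.

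Hspa1a (ENSMUSG00000091971, GRCm38 chr17:34969190-34972156, minus strand) and Hspa1b (ENSMUSG00000090877, chr17:34956436-34959238, minus strand) are the stress-induced HSP70 genes. They lie 9951 bases apart and had few counts, at rank 12754 and 11251 of 14473 tested genes by mean CPM, which is not per length. In libraries labelled Tmem173-/-, Hspa1b had 15, 17 and 18 counts after cGAMP and 27, 25 and 18 counts in controls. It had 60, 78 and 122 counts in wild type cGAMP libraries, against 22, 48 and 13 counts in wild type controls. All its Tmem173-/- counts lay below those of every wild type cGAMP library. The mean level of Hspa1b was 3.07 ± 1.13 CPM after cGAMP and 0.977 ± 0.637 CPM in wild type controls (SD, n = 3 each). All 3 wild type cGAMP libraries were higher, and the log2 fold change was 1.65 ± 0.40 (SE, edgeR adjusted p = 0.00282). Without wild type control replicate 2, the highest control, it was 2.29 (edgeR adjusted p = 0.000254).

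Hspa1a had 2, 8 and 15 counts in Tmem173-/- cGAMP libraries, against 7, 22 and 9 counts in Tmem173-/- controls. It had 30, 26 and 45 counts in wild type cGAMP libraries, against 3, 12 and 14 counts in wild type controls. The wild type groups did not overlap, the Tmem173-/- counts lay below every wild type cGAMP count, and the log2 fold change was 1.79 ± 0.61 (SE, edgeR adjusted p = 0.0237). With counts this low the call was lost when wild type cGAMP replicate 3 was left out (edgeR adjusted p = 0.0966), when wild type control replicate 1 was left out (0.1), and when both wild type libraries numbered 1 were (0.131). Of the 100-base stretches of the Hspa1a transcript, 47.1% also occur in Hspa1b, and 49.9% of those of Hspa1b occur in Hspa1a. How reads matching both were assigned, or whether they were counted, is not stated. The split of the rise between the copies and their low levels are therefore uncertain.

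Among the partners of HSP70, Hsph1 rose in wild type cells and Dnajb1 did not pass the test. Hsph1 (ENSMUSG00000029657, GRCm38 chr5:149614287-149636376, minus strand) encodes HSP110, an exchange factor for HSP70. Among Tmem173-/- libraries it was at 211, 172 and 176 CPM after cGAMP and at 206, 161 and 176 CPM in controls, and the groups overlapped. Hsph1 was at 403, 347 and 437 CPM in wild type cGAMP libraries, against 220, 167 and 220 CPM in wild type controls. Each cGAMP library was well above each control, and the log2 fold change was 0.97 ± 0.13 (SE, edgeR adjusted p = 1.52e-05). With wild type control replicate 2, the lowest control, left out it was 0.84 (edgeR adjusted p = 6.01e-05).

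Dnajb1 (ENSMUSG00000005483, GRCm38 chr8:83608193-83612653, plus strand) encodes HSP40, the J-domain protein that sets off the HSP70 cycle. Tmem173-/- libraries had 86.8, 80.2 and 77.6 CPM after cGAMP and 94.2, 82.0 and 82.6 CPM in controls, with overlap. Dnajb1 was at 92.9, 96.3 and 96.4 CPM in wild type cGAMP libraries, against 86.5, 89.2 and 107 CPM in wild type controls. The highest library of the 6 was a control, and the groups overlapped. Its log2 fold change was 0.01 ± 0.09 (SE, edgeR adjusted p = 0.923), with a 95% interval of -0.17 to 0.21 from limma-voom.

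Hsp90aa1 (ENSMUSG00000021270, GRCm38 chr12:110690605-110702728, minus strand) encodes the inducible cytosolic HSP90. Among Tmem173-/- libraries it was at 854, 698 and 715 CPM after cGAMP and at 839, 663 and 677 CPM in controls, and the groups overlapped. Hsp90aa1 was at 1835, 1586 and 1937 CPM in wild type cGAMP libraries, against 869, 13.4 and 969 CPM in wild type controls. Replicate 2 is the control at 13.4 CPM, and the wild type cGAMP libraries lay above all the controls. With all libraries the log2 fold change was 1.53 ± 1.03 and did not pass the test (SE, edgeR adjusted p = 0.259). Without wild type control replicate 2 it was 0.95 ± 0.14 and passed (SE, edgeR adjusted p = 4.88e-05), with 1786 ± 181 CPM in wild type cGAMP (SD, n = 3) and 919 ± 70.8 CPM in wild type control libraries (SD, n = 2). Of the 100-base stretches of its transcript, 39.6% also occur in the pseudogene Gm12346. That pseudogene had 231, 233 and 234 counts in wild type cGAMP libraries, against 127, 24 and 161 counts in wild type controls, so it too was lowest in control replicate 2.

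Hsp90ab1 (ENSMUSG00000023944, GRCm38 chr17:45567775-45573271, minus strand) encodes the HSP90 form made at all times. It was at rank 3 of the 14473 tested genes by mean CPM, which is not per length. Tmem173-/- libraries had 5046, 4512 and 4450 CPM after cGAMP and 5318, 4519 and 4540 CPM in controls, with overlap. Hsp90ab1 was at 7072, 6399 and 6984 CPM in wild type cGAMP libraries, against 5639, 4516 and 6302 CPM in wild type controls. The groups did not overlap, but the highest control came close to the lowest cGAMP library. The log2 fold change of 0.31 ± 0.13 did not pass the test (SE, edgeR adjusted p = 0.0606), with a 95% interval of 0.06 to 0.59 from limma-voom. Its call depends on the settings, as it passed in 11 of 23 alternatives, while leaving out wild type control replicate 2 lowered it to 0.19 (edgeR adjusted p = 0.283).

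The counts of Hsp90aa1 for each count of Hsp90ab1 were 0.169, 0.155 and 0.161 in Tmem173-/- cGAMP libraries, against 0.158, 0.147 and 0.149 in Tmem173-/- controls. The ratio was 0.259, 0.248 and 0.277 in wild type cGAMP libraries, against 0.154, 0.00298 and 0.154 in wild type controls. It lay higher in the wild type cGAMP libraries than in any of the 9 other libraries, also with wild type control replicate 2 set aside.

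The pair that forms the mitochondrial chamber was measured from neighbouring genes. Hspd1 (ENSMUSG00000025980, GRCm38 chr1:55077835-55088243, minus strand) encodes HSP60. The Tmem173-/- libraries held it at 593, 449 and 450 CPM after cGAMP and at 619, 424 and 470 CPM in controls, with overlap. Hspd1 was at 1260, 940 and 1247 CPM in wild type cGAMP libraries, against 660, 433 and 627 CPM in wild type controls. The wild type groups did not overlap, replicate 2 was the lowest in each, and the log2 fold change was 1.00 ± 0.18 (SE, edgeR adjusted p = 0.000398). With wild type control replicate 2 left out it was 0.83 (edgeR adjusted p = 0.0014). Of the 100-base stretches of its transcript, 25.8% also occur in the pseudogene Hspd1-ps3, which had 105, 76 and 113 counts in wild type cGAMP libraries, against 71, 34 and 67 counts in wild type controls.

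Hspe1 (ENSMUSG00000073676, GRCm38 chr1:55088132-55091307, plus strand) encodes HSP10, the lid of that chamber. The Tmem173-/- libraries held it at 426, 369 and 326 CPM after cGAMP and at 434, 307 and 238 CPM in controls, with overlap. Hspe1 was at 499, 610 and 504 CPM in wild type cGAMP libraries, against 388, 383 and 532 CPM in wild type controls. Wild type control replicate 3 lay above 2 of the cGAMP libraries, and the log2 fold change of 0.31 ± 0.19 did not pass the test (SE, edgeR adjusted p = 0.211), with a 95% interval of -0.08 to 0.71 from limma-voom. The genes overlap over 112 bases on opposite strands, and whether counting used the strand is not stated.

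The counts of Hspd1 for each count of Hspe1 were 1.39, 1.22 and 1.38 in Tmem173-/- cGAMP libraries, against 1.43, 1.38 and 1.98 in Tmem173-/- controls. They were 2.52, 1.54 and 2.47 in wild type cGAMP libraries, against 1.70, 1.13 and 1.18 in wild type controls. The wild type groups overlapped, since replicate 2 of wild type cGAMP lay below replicate 1 of the wild type controls.

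Hsf1 (ENSMUSG00000022556, GRCm38 chr15:76477422-76501913, plus strand), the transcription factor of the heat shock response, had the narrowest spread relative to its mean of the 10 genes in each of the 4 groups. In cells labelled Tmem173-/- it was at 56.9, 58.4 and 60.7 CPM after cGAMP and at 63.2, 58.6 and 66.1 CPM in controls, with overlap. Hsf1 was at 104, 103 and 101 CPM in wild type cGAMP libraries, against 63.8, 61.1 and 66.1 CPM in wild type controls. The wild type groups were far apart relative to the spread within each, and the log2 fold change was 0.69 ± 0.07 (SE, edgeR adjusted p = 1.73e-06).

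Taking the members as a group, they held 1.01%, 0.861% and 0.880% of all counts in Tmem173-/- cGAMP libraries, against 1.02%, 0.864% and 0.876% in Tmem173-/- controls. They held 1.59%, 1.46% and 1.59% in wild type cGAMP libraries, against 1.08%, 0.806% and 1.12% in wild type controls. Without Hsp90aa1 the shares were 1.41%, 1.30% and 1.39% in wild type cGAMP libraries, against 0.990%, 0.804% and 1.03% in wild type controls. With or without Hsp90aa1, the share was higher in each wild type cGAMP library than in any other library. The share rests mainly on Hsp90ab1 and Hspa8, which had the most counts of the members in each library. Of these, Hsp90ab1 did not pass the test in wild type cells.

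Levels between genes can be compared only per length, and the authors' FPKM values, which divide counts by a gene length and the library total, give this order in wild type cGAMP libraries. Hsp90ab1 was at 7890 ± 420 FPKM, Hspa8 at 3554 ± 62.5 FPKM, Hsp90aa1 at 1535 ± 151 FPKM and Hspd1 at 922 ± 145 FPKM (SD, n = 3 each). Hspe1 followed at 631 ± 73.9 FPKM, Hsph1 at 207 ± 23.2 FPKM, Hsf1 at 64.8 ± 1.10 FPKM and Dnajb1 at 33.2 ± 0.580 FPKM (SD, n = 3 each), while Hspa1b was at 1.12 ± 0.405 FPKM and Hspa1a at 0.411 ± 0.123 FPKM (SD, n = 3 each). The order rests on the length used. Per kilobase of the gene length listed in the table, Dnajb1 stood above Hsf1, at 29.7 ± 0.616 CPM per kb against 14.5 ± 0.173 CPM per kb (SD, n = 3 each). On that scale Hsp90aa1 was at 454 ± 46.0, Hspd1 at 435 ± 68.6 and Hspe1 at 365 ± 42.2 CPM per kb (SD, n = 3 each). The range of mean ± SD of Hspd1 overlapped those of Hsp90aa1 and of Hspe1, while the ranges of Hsp90aa1 and Hspe1 just missed each other. All 3 lay beyond their spread from Hspa8 above at 996 ± 20.1 CPM per kb and from Hsph1 below at 54.5 ± 6.27 CPM per kb (SD, n = 3 each).

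In cells labelled Tmem173-/-, 0 of the 10 genes passed the test after cGAMP, and so did 0 of 14473 tested genes (0%). At an unadjusted p under 0.05 there were 203 genes and no member by edgeR. That is fewer genes than evenly spread p-values would give, so this test may be too strict here, and the cause was not tested. By adjusted p, DESeq2 called 0 genes. The members' log2 fold changes lay between -0.59 for Hspa1a and 0.20 for Hspe1, each with an edgeR adjusted p = 1. The 95% limma-voom intervals were -0.22 to 0.32 for Hsph1, -0.38 to 0.36 for Hspd1, -0.25 to 0.06 for Hsf1 and -0.24 to 0.34 for Hspa8. These intervals hold none of the log2 fold changes fitted for the same genes in wild type cells. The scarce Hspa1b had a wider interval, -1.54 to 0.66, and Hspa1a one of -2.25 to 0.83. Hspa1b was the single member whose Tmem173-/- groups did not overlap, with all 3 cGAMP libraries below the controls, an arrangement that 3.44% of tested genes showed, and 3.2% had all cGAMP libraries above. Replicate 3 had 18 counts of Hspa1b in both groups, so this order rests on the scaling. For Hsp90aa1 the log2 fold change was 0.06 ± 1.00 with all libraries and 0.06 ± 0.12 without wild type control replicate 2 (SE), because the spread is estimated over all groups.

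The difference of the cGAMP responses, Tmem173-/- minus wild type, asks directly whether the genotypes responded unequally. It passed the test for 4 of the 10 genes, and for all 4 the response was lower in cells labelled Tmem173-/-, against 14.1% of all tested genes with a lower and 31.6% with any unequal response. The difference was -2.10 ± 0.59 for Hspa1b (SE, edgeR adjusted p = 0.0131), -0.92 ± 0.18 for Hsph1 (0.00114), -1.02 ± 0.26 for Hspd1 (0.00742) and -0.78 ± 0.11 for Hsf1 (4.66e-05), all on the log2 scale. Without wild type control replicate 2 it was -2.75 for Hspa1b, -0.80 for Hsph1, -0.85 for Hspd1 and -0.75 for Hsf1. For Hspa1a and Hspa8, which rose in wild type cells, it just missed, at -2.38 ± 0.90 (SE, edgeR adjusted p = 0.0541) and -0.52 ± 0.20 (0.0611), and it passed in 10 of 22 alternatives for Hspa1a and in 11 of 22 for Hspa8. Among these are the replicate block (edgeR adjusted p = 0.0214 for Hspa1a and 0.0401 for Hspa8) and a block within genotype (0.0275 and 0.00816). Leaving out wild type control replicate 2 gave -2.56 for Hspa1a (edgeR adjusted p = 0.0658) and -0.38 for Hspa8 (0.148). For Hsp90aa1 it was -1.48 ± 1.43 with all libraries (SE, edgeR adjusted p = 0.485) and -0.90 ± 0.18 without wild type control replicate 2 (0.00181). For Hsp90ab1, Hspe1 and Dnajb1 it was -0.35, -0.11 and -0.09, with edgeR adjusted p of 0.168, 0.796 and 0.622 and 95% limma-voom intervals of -0.73 to 0.01, -0.64 to 0.47 and -0.38 to 0.17.

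**Figure D3:**
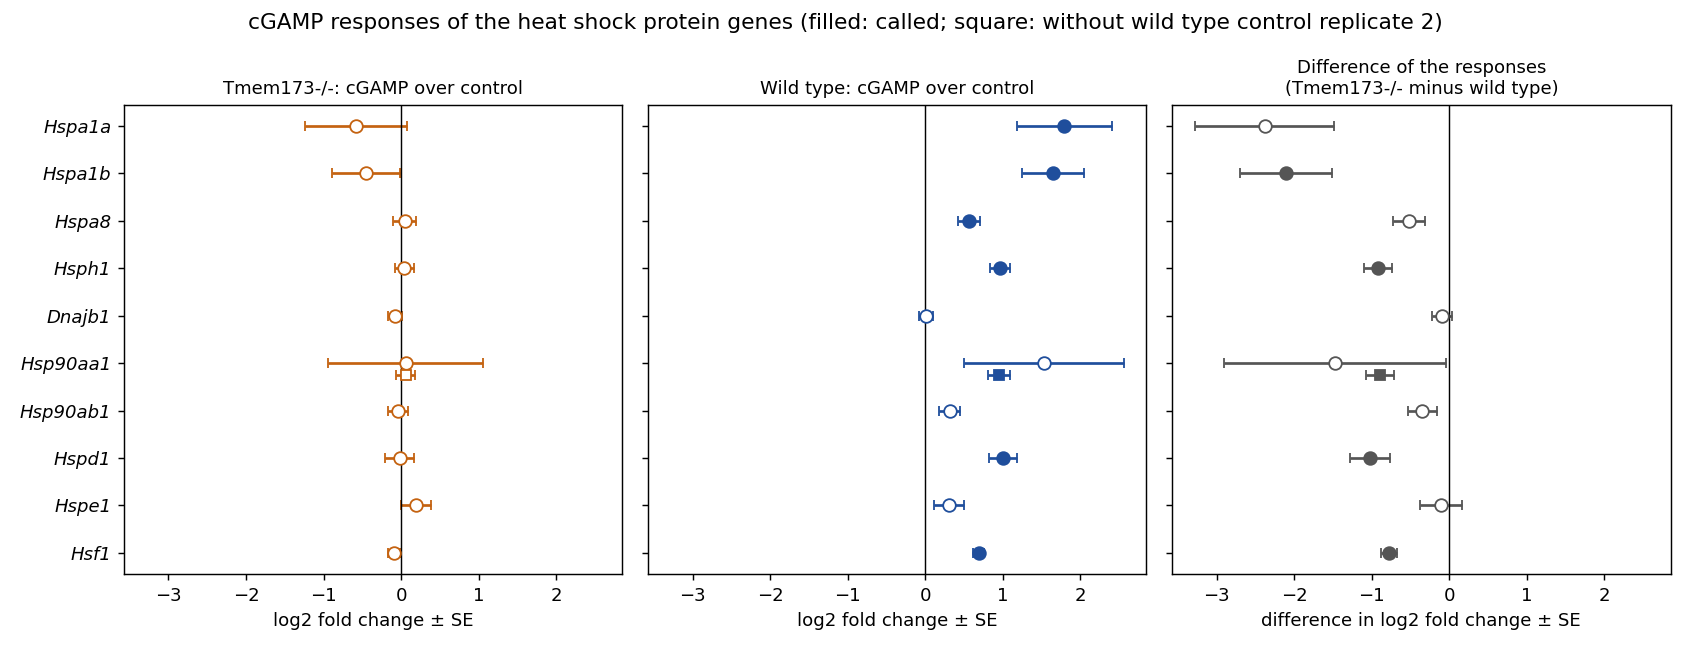
Log2 fold changes of the 10 genes after cGAMP in Tmem173-/- cells and in wild type cells, and the difference of these responses, with SE bars; filled marks passed the test and squares leave out wild type control replicate 2 for Hsp90aa1. The Tmem173-/- values lie between -0.59 and 0.20, while 6 genes have filled circles in wild type and 4 in the difference.

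Under cGAMP, Tmem173-/- cells were compared with wild type cells, and 8 of the 10 genes were lower in Tmem173-/- and none higher. Among all tested genes, 23.5% were lower and 48.3% differed in either direction. The log2 differences of those 8, Tmem173-/- over wild type, ranged from -0.52 for Hspe1 (edgeR adjusted p = 0.0381) to -2.40 for Hspa1b (0.00018). Hsph1 differed by -1.09, Hspd1 by -1.21, Hsf1 by -0.81, Hspa8 by -0.75 and Hsp90ab1 by -0.55. Dnajb1, at -0.22 ± 0.09, did not pass (SE, edgeR adjusted p = 0.055), and neither did Hsp90aa1 at -1.24 ± 1.02 (0.355) until wild type control replicate 2 was left out, which gave -1.24 ± 0.12 (5.69e-07). For all 10 genes each Tmem173-/- cGAMP library lay below each wild type cGAMP library, as it did for 29.2% of tested genes. The call was lost in 7 of 22 alternatives for Hspe1 and in 2 of 22 for Hspa1a. This comparison shares its libraries with the responses above, so it adds no independent test.

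Between the controls, 0 of the 10 genes and 0 of 14473 tested genes (0%) differed by genotype, with 921 genes and no member at an unadjusted p under 0.05 by edgeR. By adjusted p, DESeq2 called 1 gene. The member groups overlapped for all 10 genes, while 5.01% of tested genes had every Tmem173-/- control above every wild type control and 4.08% every one below. With all libraries Hspe1 had the largest shift among members, with a log2 difference of -0.41 ± 0.19, Tmem173-/- over wild type (SE, edgeR adjusted p = 0.728). Its levels were 434, 307 and 238 CPM in Tmem173-/- controls, against 388, 383 and 532 CPM in wild type controls.

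Other chaperone genes were read from 7 lists by role, of 85 genes in all, 77 of them tested. The lists were chosen with earlier results of these data known, so their counts beside those of all tested genes are a description. In cells labelled Tmem173-/- 0 of the 77 passed the test after cGAMP. In wild type cells 31 rose, 12 fell and 34 did not pass the test, and the median log2 fold change was 0.19, beside -0.0036 over all tested genes, of which 22.4% rose and 25.4% fell. With library totals as the only scaling 37 rose and 8 fell, with wild type control replicate 2 left out 26 rose and 9 fell, and with both wild type libraries numbered 1 left out 24 rose and 9 fell. The difference of the responses was lower in Tmem173-/- for 23 and higher for 10, beside 14.1% lower and 17.5% higher among all tested genes. It was lower for 29 and higher for 6 with log2(FPKM + 1), lower for 16 and higher for 8 without wild type control replicate 2, and lower for 14 and higher for 7 without the wild type libraries numbered 1.

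**Figure D4:**
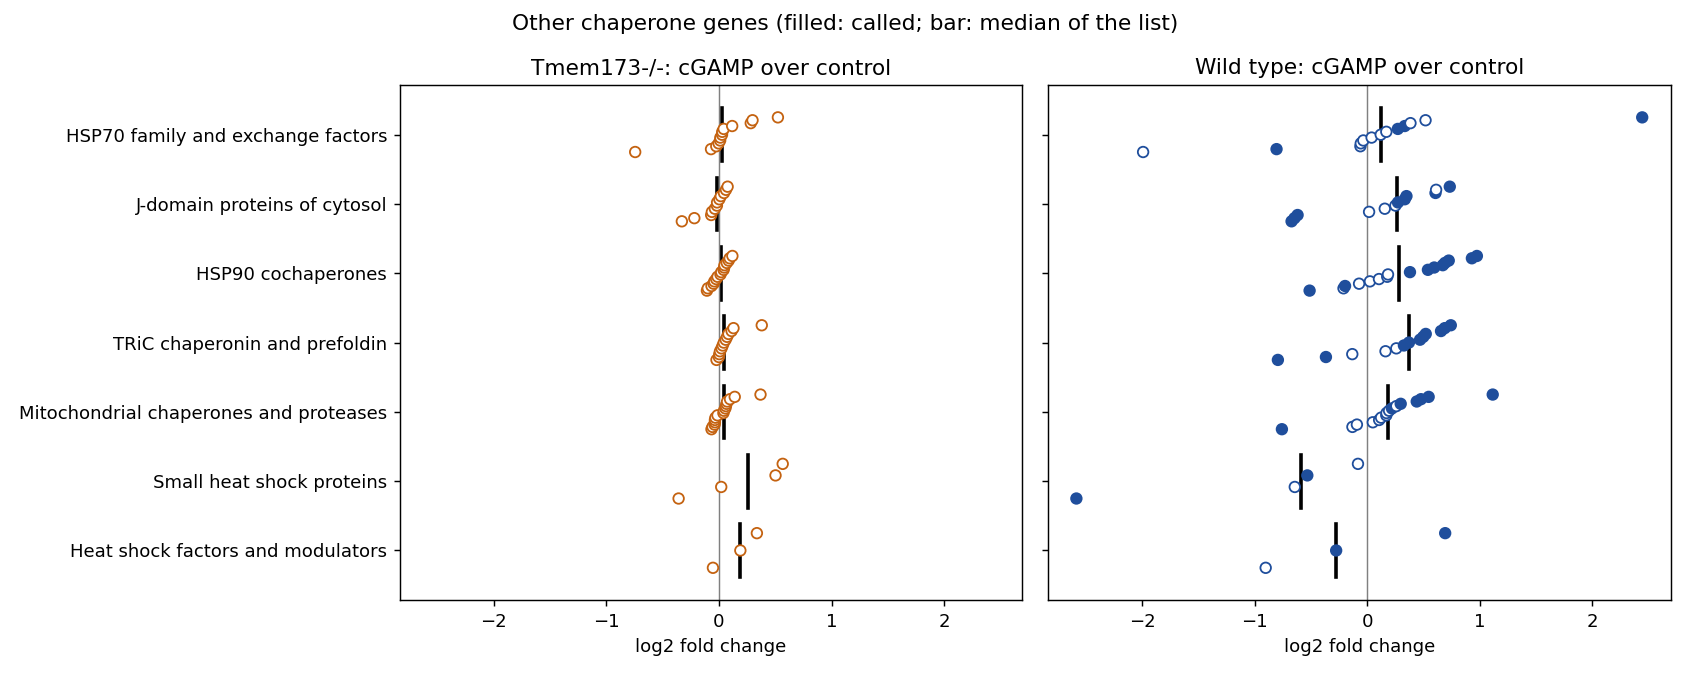
Log2 fold changes after cGAMP of the 77 tested genes of the 7 other chaperone lists, in Tmem173-/- cells and in wild type cells, with filled points for genes that passed the test and a bar for each list's median. In wild type cells 31 filled points lie above 0 and 12 below, and no point is filled in Tmem173-/- cells.

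HSP90 works with cochaperones, and of the 16 tested 8 rose, 2 fell and 6 did not pass, where 22.4% of all tested genes rose and 25.4% fell. Ppp5c, a phosphatase bound to HSP90, was at 169 ± 12.7 CPM in wild type cGAMP and 86.2 ± 4.67 CPM in wild type control libraries (SD, n = 3 each), a log2 fold change of 0.97 (edgeR adjusted p = 4.75e-07). Ppid, a prolyl isomerase of the same complexes, was at 200 ± 6.81 CPM in wild type cGAMP and 105 ± 7.09 CPM in wild type control libraries, a log2 fold change of 0.93 (edgeR adjusted p = 1.08e-07). Ahsa2, related to the activator of the HSP90 ATPase, rose by 0.72 on the log2 scale (edgeR adjusted p = 3.76e-05).

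The TRiC chaperonin folds actin and tubulin, which prefoldin hands to it. Of 13 tested genes of both complexes 8 rose, 2 fell and 3 did not pass, beside the same 22.4% and 25.4% of all tested genes, and 6 rose without wild type control replicate 2. Cct7 and Pfdn4 rose by 0.69 and 0.74 on the log2 scale (edgeR adjusted p = 0.000675 and 7.9e-05). The prefoldin subunit Pfdn5 fell to 170 ± 35.1 CPM in wild type cGAMP libraries, against 294 ± 45.4 CPM in wild type controls (SD, n = 3 each), a log2 fold change of -0.79 (edgeR adjusted p = 0.00405).

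Of 16 mitochondrial chaperones and proteases 6 rose, 1 fell and 9 did not pass, a share in either direction near the 47.8% of all tested genes. The protease Htra2 was at 81.3 ± 4.28 CPM in wild type cGAMP and 37.5 ± 2.23 CPM in wild type control libraries (SD, n = 3 each), a log2 fold change of 1.12 (edgeR adjusted p = 2.65e-07). Hspa9, the HSP70 of mitochondria, rose by 0.55 (edgeR adjusted p = 0.00626), and Hscb, a J-domain protein for iron-sulfur clusters, had a log2 fold change of -0.76 (0.000294).

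The remaining lists were mixed, and their counts stand beside the 22.4% of all tested genes that rose and the 25.4% that fell. Of 12 J-domain proteins 5 rose, 3 fell and 4 did not pass, with Dnajc2, which acts at ribosomes, at a log2 fold change of 0.73 (edgeR adjusted p = 2.76e-05). Dnajb4 and Dnajc9, a histone chaperone, had log2 fold changes of -0.67 and -0.65 (edgeR adjusted p = 0.000146 and 7.44e-05). Of 13 further HSP70 relatives and exchange factors 3 rose, 1 fell and 9 did not pass. Hspa1l, the neighbour of Hspa1a, was at 1.75 ± 0.369 CPM in wild type cGAMP and 0.319 ± 0.0368 CPM in wild type control libraries (SD, n = 3 each), a log2 fold change of 2.44 (edgeR adjusted p = 0.000639). Bag5 rose by 0.33 (edgeR adjusted p = 0.00481), and Hspa2 had a log2 fold change of -0.81 (0.000916).

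Of the 9 genes listed by symbol as small heat shock proteins 4 passed the filter on low counts. Of these 0 rose and 2 fell, beside the same 22.4% and 25.4% of all tested genes. Hspb7 had a log2 fold change of -2.58 at under 1 CPM (edgeR adjusted p = 0.00181), and Hspb11 one of -0.53 (0.0389, and 0.0916 without wild type control replicate 2). Among heat shock factors and their modulators, 3 of 5 genes were tested. Hsf2 rose by 0.69 (edgeR adjusted p = 7.86e-05), and Hsbp1, which binds HSF1, had a log2 fold change of -0.28 (0.0401, and 0.0528 without wild type control replicate 2).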

How the data were processed

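RNA from 12 libraries of mouse B lymphocytes, 3 in each of 4 groups, was measured by sequencing. Per the submitters' processing notes, fastp, STAR and featureCounts were used with the build GRCm38 (mm10). Versions, settings, the annotation release and the use of strand are not given in the sources used here. The authors deposited whole-number counts per gene, and FPKM values for the same genes. The ratio of deposited count to FPKM and column total was constant within 9.8e-15, and the length behind FPKM differed from the listed gene length for 15333 of 26792 genes, so order between genes depends on the length chosen. For 103 names held by several identifiers, the plain name went to the most abundant one.

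Counts were tested in R 4.3.3 with edgeR 4.0.16 (filterByExpr by group, TMM, robust quasi-likelihood F tests, 1 mean per group, two-sided). P-values were adjusted by Benjamini-Hochberg over 14473 genes in each of 5 contrasts, with a threshold of 0.05. "Rose", "fell" and "passed" refer to that threshold. The SE of a log2 fold change was taken as its absolute value divided by the root of its F statistic. Intervals of 95% came from limma-voom (limma 3.58.1). The edgeR procedure was checked on simulated counts in which few genes changed, the setting of spread was the same for all genes and no library stood apart. The data differ from the simulation in these respects, so the check does not cover them. Total counts of 26490593 to 31417833 leave Hspa1a and Hspa1b at 2 to 122 counts per library, so that counting error adds to their spread.

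The members, the 7 chaperone lists and the marker lists were chosen with earlier results of these data known. From each chaperone list, the up to 3 genes with the largest change past the threshold in wild type cells were named. For each member, the gene with the highest Pearson correlation of log2 CPM (prior count 2) was named as a description. Alternatives were other scalings, no filter, DESeq2 1.42.0, limma-voom, limma-trend on log2(FPKM + 1) or log2(FPKM + 0.1), the compared groups alone, a replicate block, each library left out, and both wild type libraries numbered 1 left out. A block within genotype, the rule for genes far below in a library, the values without wild type control replicate 2 (further fits of Hsp90aa1 among them) and the scan of 100-base transcript stretches shared between genes (GENCODE annotation on GRCm38) were added after seeing the data. A planned comparison of protein sequences was not made. Promoter letters are from RefSeq, GRCm38.p6.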

Additional observations from a re-analysis of the deposited data

Results flagged for a closer look

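The cGAMP responses of the genotypes differed by a test of the difference itself, Tmem173-/- minus wild type, for 4 members. On the log2 scale the difference was -2.10 for Hspa1b (edgeR adjusted p = 0.0131), -0.92 for Hsph1 (edgeR adjusted p = 0.00114), -1.02 for Hspd1 (edgeR adjusted p = 0.00742) and -0.78 for Hsf1 (edgeR adjusted p = 4.66e-05). For Hsph1, Hspd1, Hsf1 and Hspa1b all 3 wild type cGAMP libraries lay above the 3 wild type controls, while the Tmem173-/- groups overlapped for the first 3 of these genes. Hspa1b lay lower in all 3 Tmem173-/- cGAMP libraries by CPM, but its response there did not pass (edgeR unadjusted p = 0.318). Replicate 3 had 18 counts of Hspa1b in both Tmem173-/- groups.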

How the results depend on the processing

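Across the alternatives, Hspa1b, Hspa8, Hsph1, Hspd1 and Hsf1 rose in wild type cells, Hspa1b, Hsph1, Hspd1 and Hsf1 differed between the genotypes' responses, and 0 members passed in Tmem173-/- cells. The difference of responses passed for 7 members with library totals alone, with no filter, with both FPKM fits and with a replicate block within genotype. Among all tested genes it passed for 4510, 4674, 4530, 4459 and 5660 in that order, with log2(FPKM + 1) before log2(FPKM + 0.1). With log2(FPKM + 1) the genes with unequal responses split into 2036 higher and 2494 lower, against 2532 higher and 2037 lower with edgeR. With no filter 23 genes passed in Tmem173-/- cells, and 151 genes and 1 member (Hspe1, -0.41, edgeR adjusted p = 0.0279) between the controls, where DESeq2 gave 1 gene and leaving out both wild type libraries numbered 1 gave 5. Hsf1 between the controls turned to 0.028 with library totals, 0.026 with log2(FPKM + 1) and 0.026 with log2(FPKM + 0.1). Leaving out both wild type libraries numbered 1 gave -0.034 for Dnajb1 in wild type cells and -0.084 for Hspa1a between the controls. Hsp90aa1 passed in wild type cells with limma-voom (2.98, adjusted p = 0.0442, against 0.95 and 3.9e-05 without wild type control replicate 2), with no filter (edgeR adjusted p = 2.26e-40, against 3.81e-15 without that library) and with edgeR without that library, and the cause was not tested. Hsp90ab1 passed in 11 of 23 alternatives. With the replicate block 7 members passed in wild type cells, 0 in Tmem173-/- cells and 6 in the difference (Hspa1a and Hspa8 besides the 4 named), and 7 were lower in Tmem173-/- under cGAMP, where Hspe1 missed (edgeR adjusted p = 0.0542). In these comparisons 7193, 0, 4932 and 7206 of all tested genes passed in either direction. To look for pairing, the mean of its group was first taken off each gene's log2 CPM. Same-numbered cGAMP and control libraries then correlated at 0.288, 0.0958 and 0.170 in Tmem173-/- and at 0.300, 0.218 and 0.0834 in wild type. Each cGAMP library correlated best with the control of its own number, but whether these share a mouse is not stated. With the block within genotype, the difference of responses also passed for Hspa1a, Hspa8 and Hsp90ab1 (edgeR adjusted p = 0.0275, 0.00816 and 0.0432). With each library left out in turn, 5 to 7 members passed in wild type cells, beside 6025 to 7084 of all tested genes. In the difference 4 to 5 members passed, beside 3577 to 4477 genes, and under cGAMP 6 to 9 members, beside 5854 to 7192 genes. Between the controls 0 to 1 genes passed with a library left out. Values that changed sign then ranged, on the log2 scale, from -0.052 to 0.11 for Dnajb1 in wild type cells. In Tmem173-/- cells they ranged from -1.30 to 0.048 for Hspa1a, -0.041 to 0.17 for Hspa8, -0.055 to 0.15 for Hsph1, -0.040 to 0.18 for Hsp90aa1, -0.097 to 0.046 for Hsp90ab1 and -0.17 to 0.16 for Hspd1. The difference for Hspe1 ranged from -0.29 to 0.14. Between the controls they ranged from -0.29 to 0.70 for Hspa1a, -0.64 to 0.35 for Hspa1b, -0.34 to 0.72 for Hsp90aa1 and -0.065 to 0.024 for Hsf1. None of these passed the test.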

Other observations

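The genes whose levels followed the members most closely over the 12 libraries were found by Pearson correlation of log2 CPM, given as a description over libraries of 4 groups. For Hspa8 it was Npm1, nucleophosmin of the nucleolus (r = 0.9975), for Hsph1 the helicase gene Ddx18 (r = 0.9942), for Hspd1 Tomm40, the channel of protein import into mitochondria (r = 0.9970), and for Hspe1 the mitochondrial ribosomal protein gene Mrpl23 (r = 0.9901). For Hsp90ab1 it was Srpr, a subunit of the receptor for the signal recognition particle (r = 0.9932), for Hsf1 Ctu2, a factor of transfer RNA modification (r = 0.9893), and for Dnajb1 the initiation factor gene Eif1 (r = 0.9525). The scarce Hspa1a and Hspa1b were closest to A530040E14Rik (r = 0.9387) and Gm25835 (r = 0.9553). For Hsp90aa1 the closest were Rrp8, Rrp7a and Rrp12 (r = 0.9979, 0.9974 and 0.9968), of which Rrp7a and Rrp12 are among the 14 genes far below in wild type control replicate 2. Over the 11 libraries without it, these 3 had r = 0.9761, 0.9725 and 0.9725, and the closest gene was Psmg2, an assembly factor of the proteasome (r = 0.9971, against 0.4268 over all 12).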
